A study of Mus musculus with 2 samples.

Results

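Interferon-stimulated genes are the antiviral effector programme that cells switch on when interferon binds its receptor. The 40 genes described here were chosen by symbol, and 38 of them are listed in the probe panel, out of 19059 genes in the panel. The guanosine triphosphatases Mx1 and Mx2 are not listed and have no values. All 38 listed members had UMIs in both libraries. Together they held 585870 UMIs in the Penk_ctrl library, 0.226% of its total, and 390598 UMIs in the Penk_KO library, 0.250% of its total.

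The study profiled fixed cells of mouse dorsal root ganglia from the cervical spine with probe-based single-cell RNA sequencing, in which pairs of probes on each transcript are counted as unique molecules (UMIs). The Penk_ctrl mice were Foxp3 CreER; Penk fl/WT and the Penk_KO mice Foxp3 CreER; Penk fl/fl, so both groups carried the tamoxifen-activated recombinase and at least 1 floxed allele of the enkephalin gene. The recombinase is driven from Foxp3, the gene that marks regulatory T cells. Both groups received tamoxifen and 3 days of imiquimod, a skin irritant that activates the RNA-sensing receptor Tlr7, and there was no group without imiquimod. Ganglia were pooled, the number of mice is not stated, and each group is 1 library, so no difference below has a replicate check and no test was made.

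Type I interferons bind a receptor made of Ifnar1 and Ifnar2. The receptor's kinases Jak1 and Tyk2 start a signal that Stat2 carries, with Irf9, to an interferon-stimulated response element in the promoters of target genes. Type II interferon acts on another element, the gamma-activated site. In sensory ganglia this programme is known for holding back neurotropic viruses, and sensory neurons are themselves known to carry interferon receptors.

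The motif that many members share is shown first, because it is what the programme has in common in sequence. Promoters of RefSeq (GRCm38.p6, 250 bases before to 50 after the start) were found for 32 of the 40 members. The response element core GAAANNGAA, searched on both strands, was in 22 of those 32 members (68.8%) and in 9.76% of the 27025 genes of the promoter table. The gamma-activated site TTCNNNGAA, also on both strands, was in 8 of the 32 members (25.0%) and in 9.55% of all genes. A match is a description of letters, not a binding site, and matches of the 2 motifs can overlap. In the stretches below, on the strand of each gene, capitals mark the response element core on either strand, with overlapping matches run together. They are shown for the members whose levels are described most closely below, with the neighbouring copies Ifit3 and Ifit3b, and with Bst2 for the membrane proteins.
Isg15: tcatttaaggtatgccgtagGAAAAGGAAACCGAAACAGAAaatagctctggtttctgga
Ifit1: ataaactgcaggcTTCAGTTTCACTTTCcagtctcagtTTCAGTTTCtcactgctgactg
Ifit3: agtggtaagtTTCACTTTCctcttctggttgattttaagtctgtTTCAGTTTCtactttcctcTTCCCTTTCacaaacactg
Ifit3b: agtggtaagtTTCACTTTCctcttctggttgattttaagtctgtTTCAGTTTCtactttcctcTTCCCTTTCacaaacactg
Rsad2: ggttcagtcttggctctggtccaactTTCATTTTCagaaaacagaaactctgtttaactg
Trim25: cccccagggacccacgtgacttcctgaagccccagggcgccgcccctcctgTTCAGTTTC
Bst2: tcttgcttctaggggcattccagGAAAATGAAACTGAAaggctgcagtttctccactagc

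The Isg15 stretch lies at chr4:156200857-156200916 on the minus strand and holds 3 overlapping matches, the first beginning 78 bases before the start. Ifit1, at chr19:34640767-34640826 on the plus strand, also holds 3. The stretches of Ifit3 (chr19:34583364-34583445) and Ifit3b (chr19:34607760-34607841), both on the plus strand, are the same in 82 of 82 bases. These are neighbouring gene copies, and how far their probes tell them apart was not tested, so each one's values are uncertain. Rsad2 (chr12:26456538-26456597, minus strand) and Trim25 (chr11:88999343-88999402, plus strand) hold 1 match each, the Trim25 match beginning 9 bases before the start. Bst2 (chr8:71537566-71537625, minus strand) holds 2.

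Libraries had 15710 barcodes and 259136217 UMIs in Penk_ctrl, and 12067 barcodes and 156441497 UMIs in Penk_KO, with medians of 2481 and 2243 UMIs. The libraries shared 4723 droplet barcodes, so that results are also given for droplets not shared between the libraries where these differ. Pairs of values below give Penk_ctrl first and Penk_KO second. Penk, the targeted gene, had 582 UMIs in Penk_ctrl and 4 in Penk_KO. The loss was not limited to T cells: neurons had 334 and 1 Penk UMIs and myelinating Schwann-like cells 165 and 0, although the recombinase is driven from Foxp3, and the cause was not tested. The T cell gene Cd3e had at most 13.4 CPM (UMIs per 1000000 UMIs of the class) in any class, and Foxp3 at most 1.91 CPM. The number of probes per gene differs, so levels are compared between classes and libraries and not between genes. UMIs of neuron genes were common in every class, and free RNA and mixed droplets cannot be told apart as their source. Over 14 general neuron genes, the median level in macrophage-like cells was 56.3% of the neuronal level in Penk_ctrl and 50.8% in Penk_KO, and in myelinating Schwann-like cells 73.4% and 72.4%. A member's level in a non-neuronal class is therefore called above this background below only where its ratio to neurons exceeded that of all 14 neuron genes in both libraries.

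Across 8 classes named by their markers, members were highest in endothelial-like and macrophage-like cells more often than in neurons. The members' summed level was 2126 CPM in neurons, 5109 CPM in endothelial-like cells and 3842 CPM in macrophage-like cells of the Penk_ctrl library, and 2306, 5825 and 4568 CPM in Penk_KO. Mural-like cells had 3837 and 4549 CPM, near the macrophage level. They were highest for 0 members in both libraries alike, against 7.90% of 14020 genes. In 1 library only they were highest for Ifitm3 and Usp18 (Penk_ctrl) and for Irf1, Ifih1 and Parp9 (Penk_KO). Satellite glia-like (3007 and 3360 CPM), fibroblast-like (3101 and 3282 CPM) and perineurial-like cells (3061 and 3722 CPM) were also above neurons. Myelinating Schwann-like cells, at 2291 and 2622 CPM, were nearest to neurons. Of the 38 members, 17 had their highest level in endothelial-like cells in both libraries, against 6.08% of 14020 genes. Macrophage-like cells were highest for 10 members, against 9.81% of genes, and neurons for 3, against 15.9%. Stat2, Ifit1 and Oasl2 were the 3 neuronal ones. The macrophage count was 5 with cells thinned to 500 UMIs, and also 5 in unshared droplets, and the endothelial count lay between 14 and 17 in all alternatives. The remaining 8 members had different highest classes in the 2 libraries. Neurons still held 74.4% and 73.1% of all member UMIs and 79.1% of all UMIs in each library.

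**Figure D1:**
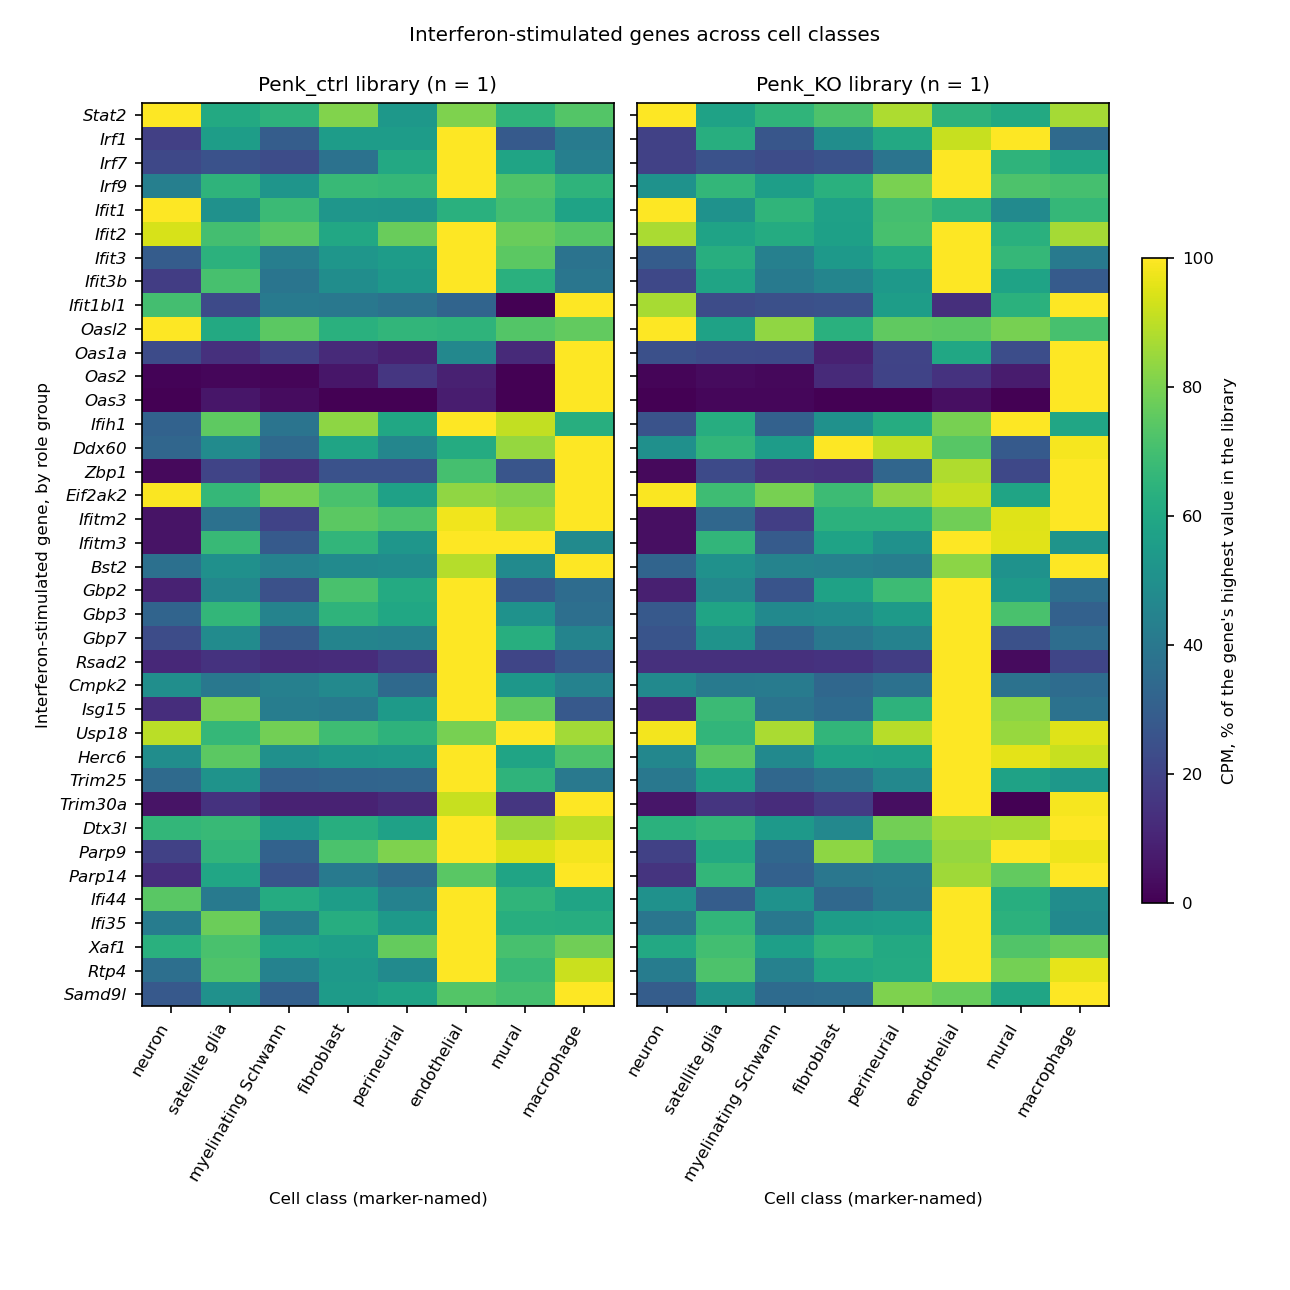
Level of the 38 members (rows, ordered by role) in 8 marker-named classes (columns) in each library, as a percent of the gene's highest CPM in that library. Yellow cells gather in the endothelial, mural and macrophage columns, and Stat2, Ifit1 and Oasl2 are brightest in neurons in both libraries.

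Among the signal transducers and transcription factors, Irf7, the factor that amplifies interferon production, stood at 344 CPM in endothelial-like cells of Penk_ctrl (95% Poisson interval 324 to 365, counting error only, as for all intervals here) and at 370 CPM in Penk_KO (348 to 394). In neurons it was at 75.0 and 71.7 CPM. Stat2, which acts with Irf9, ran the other way, with 99.0 and 120 CPM in neurons and 79.8 and 77.7 CPM in endothelial-like cells. The endothelial-like cells of both libraries were thus high for Irf7 and not for Stat2.

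Of the IFIT family, RNA-binding proteins that block translation of viral messages, Ifit1 was at 325 and 366 CPM in neurons, and it exceeded the neuronal background in none of the 7 other classes. Ifit3 was above it in all 7, with 238 and 263 CPM in endothelial-like cells against 68.8 and 77.0 CPM in neurons. Ifit3b had 77.7 and 87.9 CPM in endothelial-like cells and 14.2 and 18.9 CPM in neurons. The sparse Ifit1bl1 was at 11.4 CPM or less in each of the 8 classes. Ifit2 differed little between neurons (64.6 and 70.2 CPM) and endothelial-like cells (68.7 and 80.4 CPM).

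The OAS family makes or relates to the oligoadenylate signal that activates RNase L. Oas2 was highest in macrophage-like cells, at 98.5 CPM (80.4 to 119) and 94.8 CPM (74.5 to 119), 6.40 and 4.99 times the next class, perineurial-like cells, and 0.927 and 1.38 CPM in neurons. Oas3 was at 15.3 and 37.9 CPM in macrophage-like cells from 16 and 30 UMIs, and at 1.23 and 1.52 CPM in the next class. Oas1a was also highest there, at 64.0 and 61.9 CPM, with 29.9 and 36.8 CPM in endothelial-like cells. Oasl2, an OAS-like member of the family, was highest in neurons, with 409 and 412 CPM against 310 and 292 CPM in macrophage-like cells. In this family 3 of 4 members peaked in macrophage-like cells in both libraries, and Oasl2 did not.

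Among the nucleic acid sensors, Zbp1, which senses left-handed double-stranded nucleic acid, was at 57.4 and 67.0 CPM in macrophage-like cells, at 40.4 and 59.1 CPM in endothelial-like cells and at 1.48 and 1.70 CPM in neurons. Ifih1, the sensor of long double-stranded RNA, was at 79.2 and 86.8 CPM in endothelial-like cells and 24.8 and 28.1 CPM in neurons. Eif2ak2, the kinase PKR, was at 96.9 and 99.2 CPM in neurons and at 97.5 and 99.8 CPM in macrophage-like cells. Its neuronal and macrophage levels were thus nearly the same, where those of Zbp1 were far apart.

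Of the membrane proteins that restrict virus entry and release, Ifitm2 and Ifitm3 were far above neurons in endothelial-like cells and Bst2 less so. Ifitm2 had 614 and 797 CPM in macrophage-like cells, 600 and 624 CPM in endothelial-like cells and 31.8 and 33.1 CPM in neurons. Ifitm3 had 581 and 764 CPM in endothelial-like cells, 393 and 504 CPM in satellite glia-like cells and 30.7 and 32.1 CPM in neurons. Bst2, or tetherin, was at 419 and 486 CPM in macrophage-like cells and 154 and 156 CPM in neurons, and in myelinating Schwann-like cells at 121% and 139% of its neuronal level.

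Rsad2, or viperin, which makes a chain-terminating nucleotide, was the clearest endothelial member. It had 199 CPM (184 to 215) and 238 CPM (220 to 258) in endothelial-like cells, and 54.5 and 49.3 CPM in the next class, macrophage-like cells, so that the highest class was 3.66 and 4.84 times the next. With each cell thinned to 500 UMIs, 12.3% of endothelial-like cells of Penk_ctrl had an Rsad2 UMI and 13.9% of Penk_KO, against 1.43% and 1.60% of neurons. Before thinning the shares were 42.7% and 45.6% of endothelial-like cells and 27.6% and 26.6% of neurons, at median depths of 2714 and 2726 UMIs against 10293 and 7517 UMIs. Cmpk2, a nucleotide kinase next to Rsad2 in the genome, had 92.8 and 96.7 CPM in endothelial-like cells and 46.0 and 45.8 CPM in neurons. The endothelial-like clusters also carried RNA of other cells, with the satellite glia gene Apoe at 2925 and 2923 CPM and the neuron gene Snap25 at 861 and 996 CPM, and its part in these levels was not tested.

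**Figure D2:**
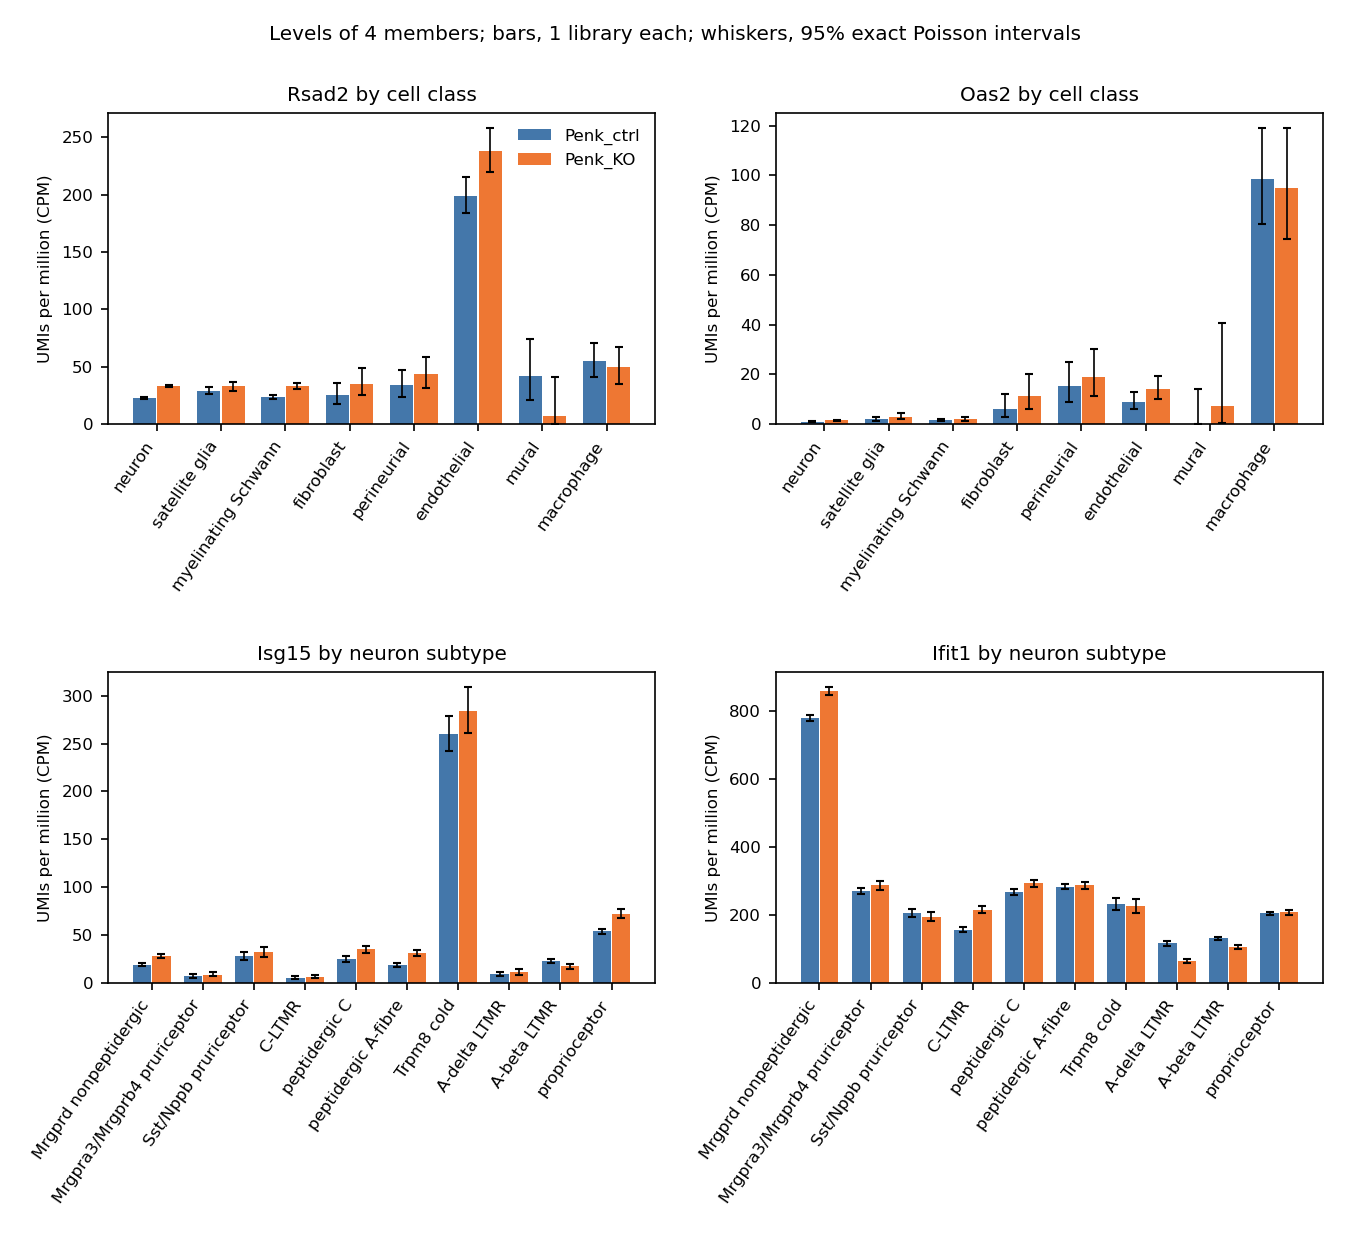
CPM of Rsad2 and Oas2 by cell class (top) and of Isg15 and Ifit1 by neuron subtype (bottom), with 1 bar per library and 95% exact Poisson intervals as whiskers. In both libraries a single column stands out in each panel: endothelial for Rsad2, macrophage for Oas2, Trpm8 cold for Isg15 and Mrgprd nonpeptidergic for Ifit1.

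Isg15, the ubiquitin-like modifier, had 235 and 309 CPM in endothelial-like cells, 188 and 211 CPM in satellite glia-like cells and 30.4 and 35.9 CPM in neurons. Usp18, which removes Isg15 from proteins and restrains the receptor, was at 81.5 and 85.0 CPM in neurons and 72.1 and 86.4 CPM in endothelial-like cells. Trim25, a ubiquitin ligase of the RNA-sensing pathway, was at 151 and 152 CPM in endothelial-like cells and 52.4 and 61.1 CPM in neurons. The modifier thus differed between classes by more than the enzyme that removes it.

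Both PARPs were low in neurons. Parp14 was at 130 and 125 CPM in macrophage-like cells and 16.8 and 18.7 CPM in neurons, and Parp9 at 66.9 and 78.3 CPM and 13.1 and 15.5 CPM. Of the large guanosine triphosphatases, Gbp3 had 126 and 143 CPM in endothelial-like cells and 40.4 and 40.1 CPM in neurons, and Gbp7 84.8 and 88.3 CPM and 19.7 and 23.1 CPM. Ifi44 and Xaf1, effectors of less certain function, were also highest in endothelial-like cells, at 86.6 and 116 CPM and at 112 and 130 CPM.

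Within neurons, the members did not share a common order of subtypes. The 10 subtypes were named by markers, and 37 members had enough UMIs (at least 100 over both libraries). Mrgprd nonpeptidergic-like neurons, the skin-innervating nociceptors, were highest in both libraries for 12 of the 37 members, against 4.63% of 13287 genes, though for 6 with cells thinned to 500 UMIs. Peptidergic C-like neurons were highest for 5, against 7.78%, and Trpm8 cold-like neurons for 1, Isg15, against 9.24%. The summed member level ran from 958 and 763 CPM in A-delta LTMR-like neurons (low-threshold mechanoreceptors) to 3148 and 3382 CPM in Mrgprd nonpeptidergic-like neurons.

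**Figure D3:**
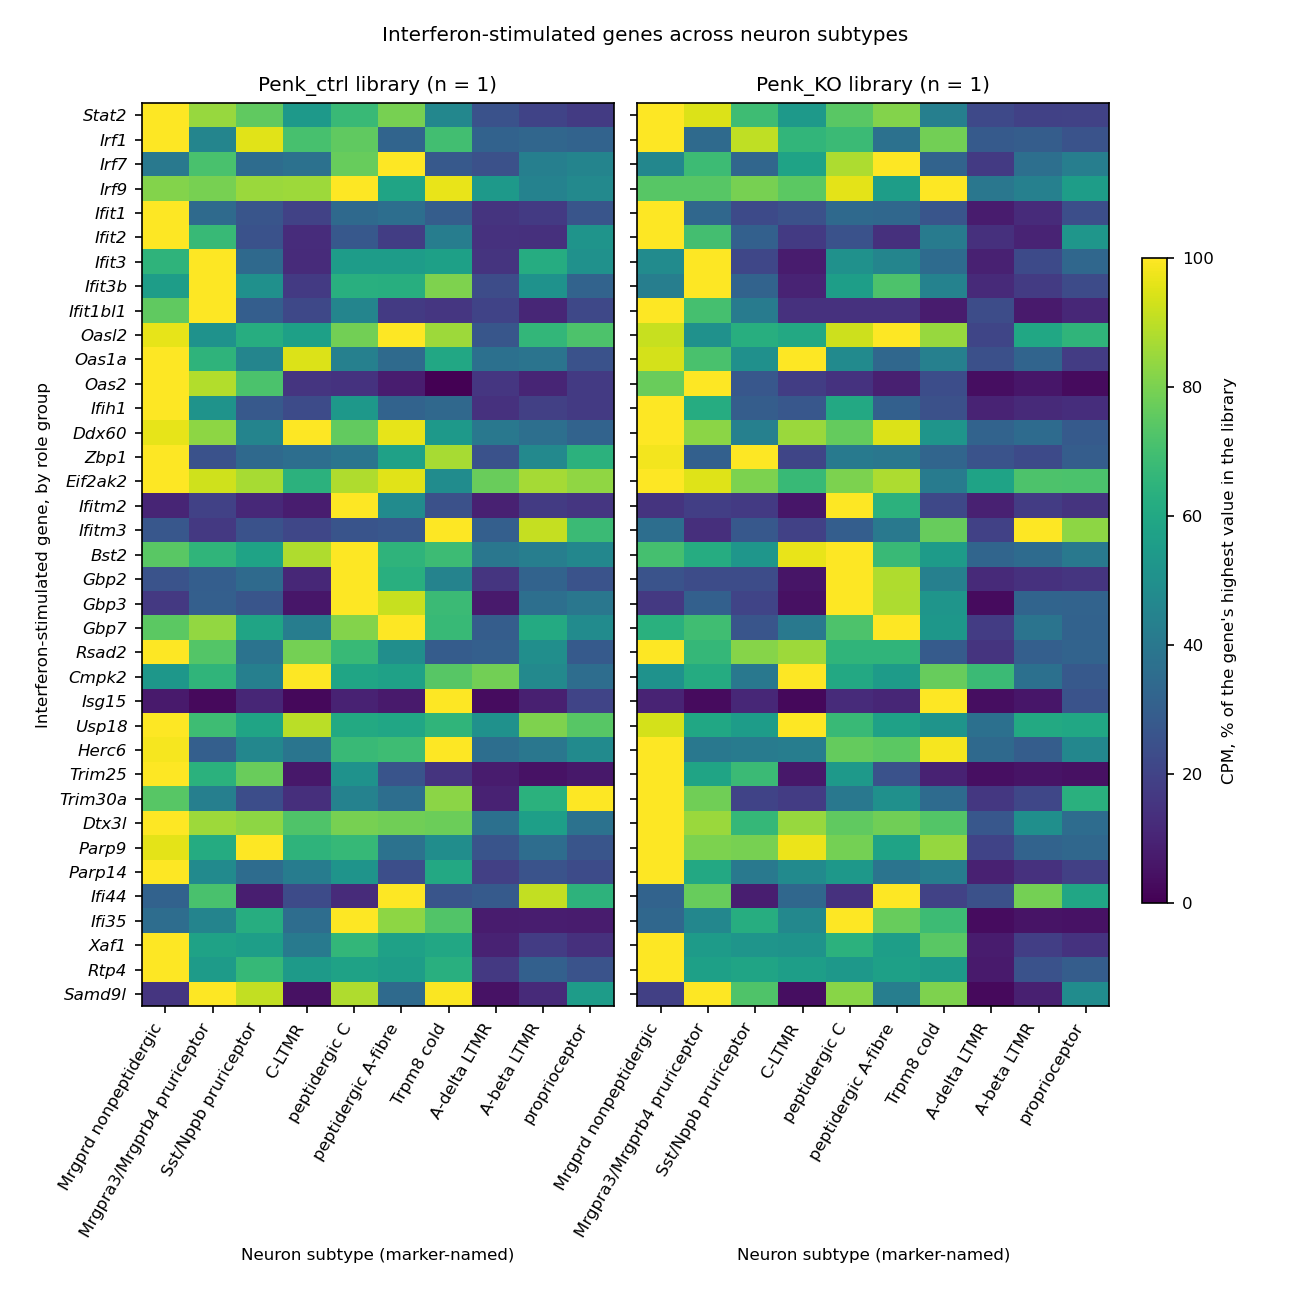
Level of 37 members (rows; Oas3, with 19 UMIs in these subtypes, is left out) in 10 marker-named neuron subtypes (columns) in each library, as a percent of the gene's highest CPM in that library. The first column, Mrgprd nonpeptidergic, is yellow for Stat2, Ifit1, Ifit2, Ifih1, Trim25, Xaf1 and Rtp4 in both libraries, and Isg15 is brightest in the Trpm8 cold column.

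Ifit1 was at 779 CPM (770 to 787) and 858 CPM (847 to 869) in Mrgprd nonpeptidergic-like neurons, 2.76 and 2.94 times the next subtype. At 500 UMIs per cell, 28.3% and 31.5% of these neurons had an Ifit1 UMI, against 4.29% and 4.96% of A-delta LTMR-like neurons. Ifit2 was at 151 and 157 CPM, Stat2 at 176 and 189 CPM, Ifih1 at 57.6 and 61.7 CPM, Xaf1 at 142 and 144 CPM and Rtp4, a chaperone of receptors, at 82.1 and 101 CPM in the same neurons. The marker gene Mrgprd itself was at 879 and 986 CPM there and at no more than 43.2 and 35.7 CPM in another subtype.

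Trim25 differed widely between subtypes. It had 141 and 148 CPM in Mrgprd nonpeptidergic-like neurons, 109 and 101 CPM in Sst/Nppb pruriceptor-like neurons (an itch subtype) and 90.2 and 86.6 CPM in Mrgpra3/Mrgprb4 pruriceptor-like neurons. In A-beta LTMR-like neurons it was at 7.15 and 7.78 CPM, and in proprioceptor-like neurons at 9.23 and 6.49 CPM. C-LTMR-like neurons were also low, at 9.35 and 9.80 CPM, as were Trpm8 cold-like neurons at 21.2 and 14.2 CPM. Ifi35, an interferon-induced leucine zipper protein, was also low in the A-beta and proprioceptor-like subtypes (8.94 and 6.89, and 8.23 and 6.23 CPM) and highest in peptidergic C-like neurons, at 109 and 127 CPM.

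Isg15 was concentrated in Trpm8 cold-like neurons, the cold-sensing subtype. It had 260 CPM (242 to 279) and 284 CPM (261 to 309) there, 53.8 and 72.2 CPM in proprioceptor-like neurons, the next subtype, and 5.19 and 6.27 CPM in C-LTMR-like neurons. The step from the highest to the next subtype was 4.82 and 3.93 times. Shares of thinned cells with an Isg15 UMI were 12.7% (Clopper-Pearson interval 8.59% to 17.8%) and 12.6% (8.26% to 18.2%) in Trpm8 cold-like neurons, and 0.198% and 0.781% in C-LTMR-like neurons. Before thinning they were 59.3% and 56.8%, against 8.30% and 10.4%, with median depths of 7131 and 5582.5 UMIs against 11788 and 9293 UMIs. Glial RNA was also high in this subtype: the satellite glia gene Apoe was at 1116 and 806 CPM, against 22825 and 22318 CPM in satellite glia-like cells, and Isg15 itself was lower in satellite glia-like cells (188 and 211 CPM) than in Trpm8 cold-like neurons. The part of glial RNA in the Isg15 values was not tested. In unshared droplets the step was 5.31 and 4.03 times, and with cells thinned to 500 UMIs it was 4.21 and 2.59 times.

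Other members had still other orders. Ifitm2 led in peptidergic C-like neurons, with 123 and 112 CPM, and had 59.3 and 72.1 CPM in peptidergic A-fibre-like neurons, the next subtype. Bst2 was highest in the same peptidergic C-like neurons, at 245 and 252 CPM. Ifitm3 had its highest levels in Trpm8 cold-like (59.2 and 45.7 CPM), A-beta LTMR-like (54.1 and 59.4 CPM) and proprioceptor-like neurons (40.3 and 49.3 CPM), where Apoe was also highest (1116 and 806, 1251 and 1055, 1397 and 1265 CPM). The part of glial RNA in the Ifitm3 values was not tested. Cmpk2 led in C-LTMR-like neurons at 85.3 and 88.2 CPM, and Ifi44 in peptidergic A-fibre-like neurons at 106 and 108 CPM. Ifit3 led in Mrgpra3/Mrgprb4 pruriceptor-like neurons, at 123 and 190 CPM. Oasl2 and Irf7 led in peptidergic A-fibre-like neurons, Oasl2 at 536 and 551 CPM and Irf7 at 128 and 123 CPM.

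In most subtypes few cells stood far above the rest. In neurons of at least 10000 UMIs, the median Mrgprd nonpeptidergic-like cell had 30.0 member UMIs per 10000 in Penk_ctrl (5th to 95th percentile 16.8 to 54.9) and 30.1 in Penk_KO (15.5 to 66.6), and 0 of 742 and 5 of 517 cells had over 3 times their median. A-delta LTMR-like neurons had 6 of 147 and 9 of 87 such cells. The 1% of neurons with the highest member share held 1.90% and 2.85% of the neuronal member UMIs, and 0.485% and 0.650% of all neuronal UMIs. In macrophage-like cells the highest 1% held 5.18% and 8.82% of member UMIs, and 0.903% and 1.18% of all UMIs. These cells were picked by their member share, so an excess is built in. Median depths were 10293 and 7517 UMIs in neurons and 922 and 901 UMIs in macrophage-like cells, so the 2 classes are not compared by it. At 500 UMIs per cell, neurons had a mean of 1.06 and 1.11 members detected, macrophage-like cells 1.92 and 2.20, and endothelial-like cells 2.73 and 3.09.

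Between the libraries, most members were slightly higher in Penk_KO in neurons summed together, and 6 passed a fixed size step. A member was counted as past the size step where its ratio of CPM, Penk_KO to Penk_ctrl, was at most 0.8, or at least the inverse of 0.8, with at least 100 UMIs over both libraries. In neurons, 6 of 37 members were higher by the size step, against 2.34% of 13486 genes, and 0 were lower, against 4.49%. The members' median ratio was 1.13, and 33 of 37 lay above 1, while the median of all genes was 0.996 and 47.7% of them lay above 1. Weighting the 10 named subtypes equally, the members' median was 1.06 and 4 members were higher by the step. With each cell counting equally the median was 1.07, and with cells thinned to 500 UMIs it was 1.03, with 3 members higher and 2 lower. The members with enough UMIs and the share of all genes past the step are not given for these alternatives. Their counts are therefore not set against the 6 of 37.

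The 6 members were Ifit1bl1, Oas2, Rsad2, Ifit3b, Rtp4 and Trim30a. Rsad2 stood at 22.6 and 33.1 CPM, a ratio of 1.46 (95% exact binomial interval 1.40 to 1.53), and was higher in 8 of 10 subtypes. Its ratio was 2.92 (2.27 to 3.78) in Sst/Nppb pruriceptor-like neurons, 1.79 (1.56 to 2.06) in peptidergic A-fibre-like neurons and 1.36 (1.27 to 1.46) in Mrgprd nonpeptidergic-like neurons. Ifit1bl1 stood at 5.36 and 9.89 CPM (ratio 1.85, 1.70 to 2.0), with a ratio of 2.28 in Mrgprd nonpeptidergic-like neurons and 0.540 in peptidergic C-like neurons. Ifit3b stood at 14.2 and 18.9 CPM (ratio 1.33, 1.26 to 1.40) and Rtp4 at 44.9 and 57.9 CPM (ratio 1.29). Oas2 (0.927 and 1.38 CPM) and Trim30a, an inhibitor of inflammatory signalling (1.27 and 1.63 CPM), were sparse. Thinned to 500 UMIs, Ifit3b, Ifit1bl1, Oas2 and Trim30a had ratios under 1, at 0.995, 0.903, 0.811 and 0.865. Over the alternatives the ratio of Rsad2 ran from 1.10 to 1.47 and that of Rtp4 from 1.16 to 1.29. Neither passed the step in all of them.

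**Figure D4:**
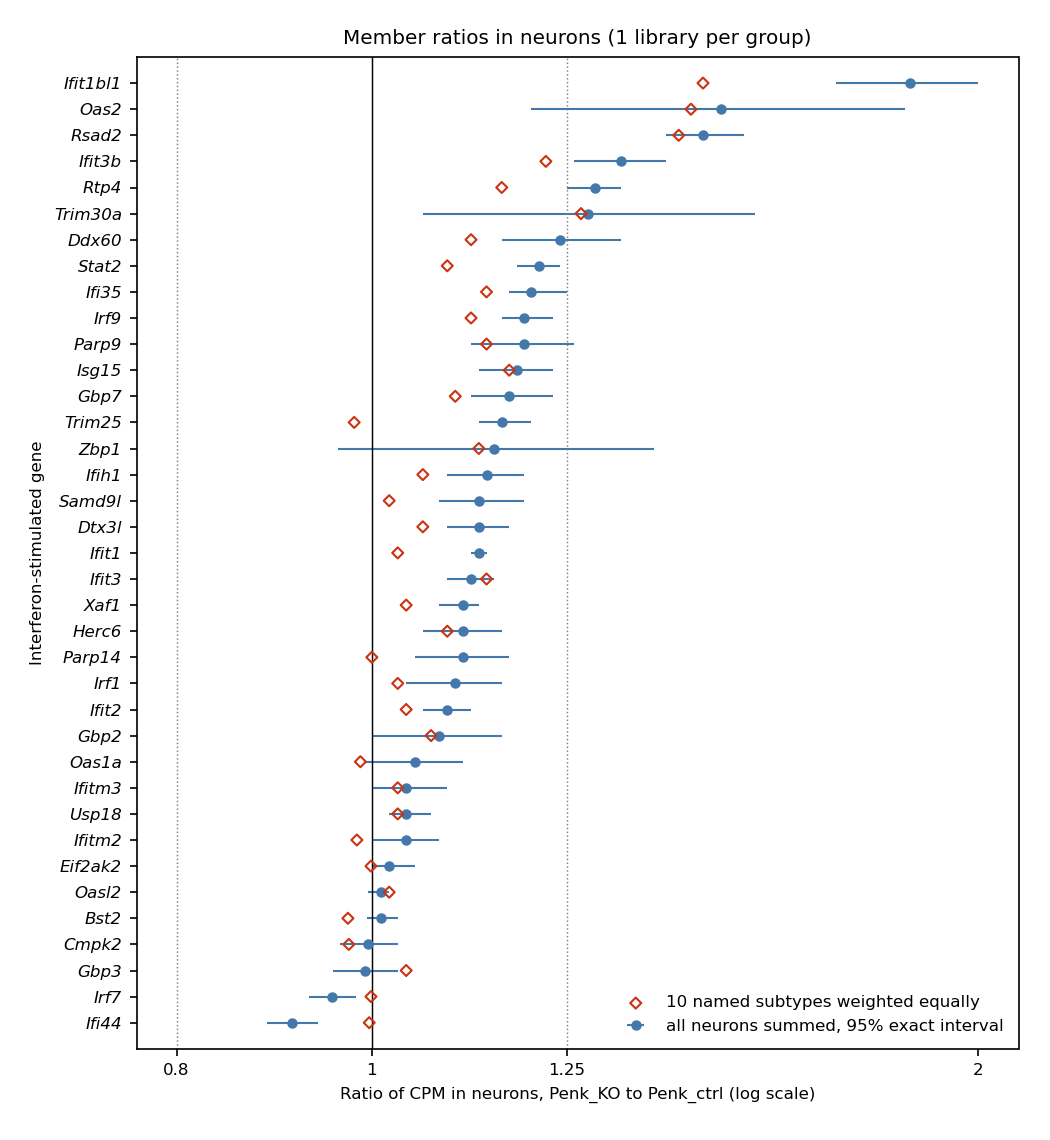
Ratio of CPM in neurons, Penk_KO to Penk_ctrl, on a log axis for the 37 members with at least 100 UMIs: circles, all neurons summed, with 95% exact intervals for counting error; diamonds, the 10 named subtypes weighted equally. Circles of 33 members lie right of 1, and many diamonds lie nearer 1 than their circles.

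Other members were nearer a ratio of 1 in neurons. Oasl2 stood at 409 and 412 CPM (ratio 1.01, 0.996 to 1.02), Bst2 at 154 and 156 CPM (1.01, 0.994 to 1.03) and Eif2ak2 at 96.9 and 99.2 CPM (1.02, 1.00 to 1.05). Ifit1 had a ratio of 1.13 (1.12 to 1.14), Stat2 1.21 (1.18 to 1.24) and Trim25 1.16 (1.13 to 1.20), and equal weighting of subtypes brought these to 1.03, 1.09 and 0.980. Irf7 (ratio 0.956, 0.931 to 0.982) and Ifi44 (0.913, 0.887 to 0.940) lay below 1, and Gbp3 (0.992) and Cmpk2 (0.996) lay just below it. The share of Mrgprd nonpeptidergic-like neurons, where Ifit1, Stat2 and Trim25 were highest, was 16.7% of UMIs in Penk_ctrl and 18.6% in Penk_KO. Proprioceptor-like neurons held 11.9% and 9.65%, and A-beta LTMR-like neurons 9.06% and 7.23%, while each other named subtype had a higher share in Penk_KO. Neurons in clusters without a subtype name count in the summed ratios, but not in these shares or the equal weighting. The 2 largest such clusters held 291 and 231 cells, and 395 and 121 cells, the latter with Apoe among its leading genes. The part of these shares and clusters in the ratios was not tested.

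Median ratios lay on both sides of 1 among the subtypes. The members' median ratio was 1.18 in C-LTMR-like neurons, 1.15 in peptidergic C-like, 1.12 in Mrgpra3/Mrgprb4 pruriceptor-like, 1.11 in peptidergic A-fibre-like and 1.10 in Mrgprd nonpeptidergic-like neurons. It was 1.01 in Sst/Nppb pruriceptor-like and in Trpm8 cold-like neurons, 0.935 in proprioceptor-like (0.931 to 1.02 over the alternatives), 0.860 in A-beta LTMR-like and 0.828 in A-delta LTMR-like neurons. All-gene medians lay between 0.986 and 1.00. In A-delta LTMR-like neurons 24 of 27 members were below 1, against 55.7% of 9703 genes, and in A-beta LTMR-like neurons 25 of 33, against 51.5% of 10892 genes. In C-LTMR-like neurons 24 of 29 were above 1, against 46.8% of 9749 genes. A difference between subtypes was not tested.

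Ifit1 showed both directions. It stood at 116 and 63.7 CPM in A-delta LTMR-like neurons (ratio 0.549, 0.489 to 0.616) and at 155 and 214 CPM in C-LTMR-like neurons (1.38, 1.29 to 1.48). Ifit3 stood at 76.0 and 43.0 CPM in A-beta LTMR-like neurons (0.566, 0.511 to 0.626) and at 123 and 190 CPM in Mrgpra3/Mrgprb4 pruriceptor-like neurons (1.54, 1.43 to 1.66). Irf7 had a ratio of 0.649 in A-delta LTMR-like and 1.49 in C-LTMR-like neurons. The A-delta LTMR-like cells were 210 and 141, and their median member UMIs per 10000, over cells of at least 10000 UMIs, were 8.25 (5th to 95th percentile 4.26 to 23.4) and 5.87 (3.00 to 18.6). Glial and Mrgprd RNA were also lower there in Penk_KO: Apoe was at 694 and 468 CPM, Fabp7 at 95.3 and 60.4 CPM and Mrgprd at 43.2 and 35.7 CPM, and their part in the result was not tested. The thinned share of A-delta LTMR-like cells with an Ifit1 UMI, 4.29% and 4.96%, did not follow the CPM, and no order is read from it. Nor did the thinned Ifit3 share in A-beta LTMR-like cells, 1.79% and 2.84%, from 7 and 9 cells. Median depths of A-beta LTMR-like cells were 17481 and 8560 UMIs. In Mrgpra3/Mrgprb4 pruriceptor-like neurons the thinned Ifit3 share, 4.32% and 7.34%, went with its CPM. The thinned Irf7 share in A-delta LTMR-like cells, 0.952% and 1.42%, came from 2 cells in each library. In unshared droplets the A-beta LTMR-like median was 1.04, and the A-delta LTMR-like median stayed under 1 in all 10 alternatives, between 0.745 and 0.856.

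**Figure D5:**
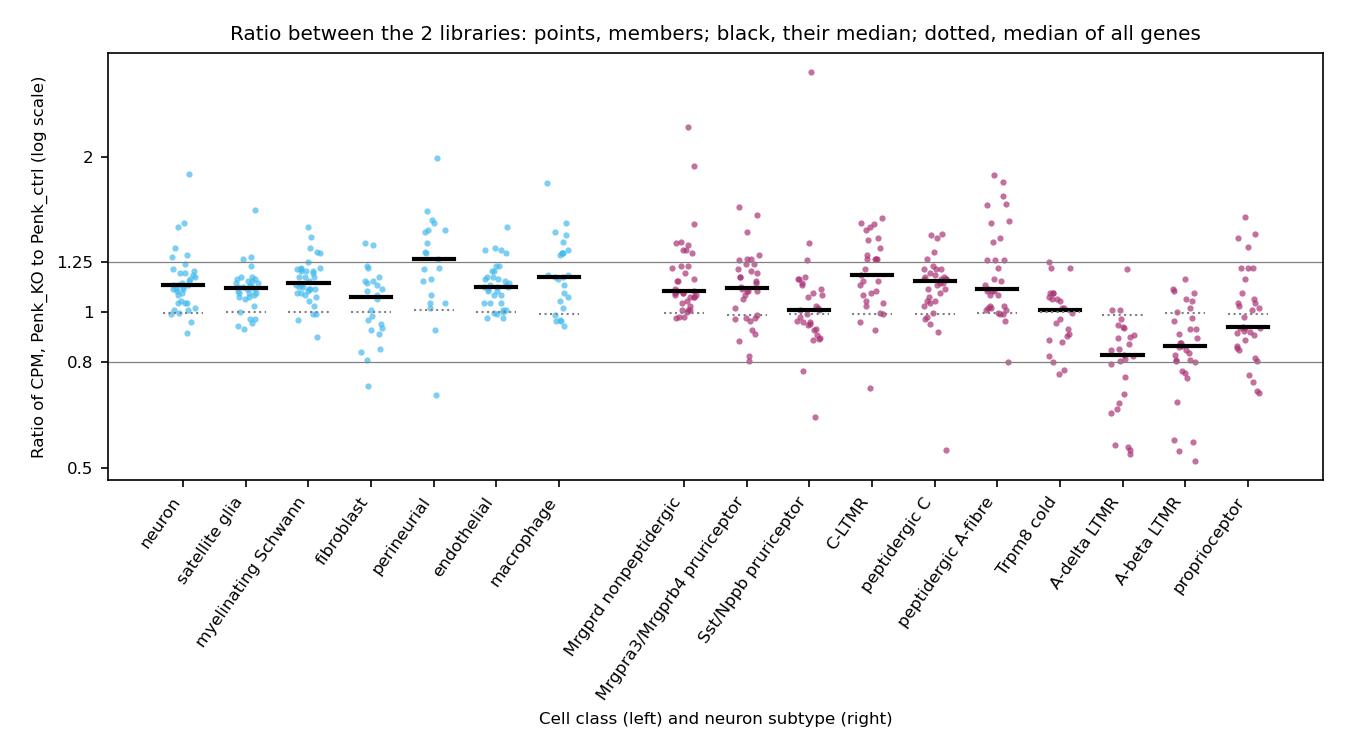
Ratio of CPM, Penk_KO to Penk_ctrl, on a log axis for each member with at least 100 UMIs in 7 cell classes (left) and 10 neuron subtypes (right). Black bars are member medians, dotted bars the medians of all genes, and grey lines the size step, 0.8 and its inverse. Member medians lie above 1 in all 7 classes and run from 0.828 (A-delta LTMR) to 1.18 (C-LTMR) among subtypes.

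Outside neurons, in satellite glia-like cells 3 of 34 members were higher by the size step, against 4.22% of genes, and 0 lower, against 4.29%. In myelinating Schwann-like cells 6 of 36 were higher, against 3.99%, and 0 lower, against 2.35%, but with cells thinned to 500 UMIs 4 were higher and 5 lower, and the median ratio fell from 1.14 to 1.02. Genes of other cells were also higher in Penk_KO in this class: the macrophage genes C1qa (69.1 and 97.2 CPM, ratio 1.41), C1qb (72.6 and 109 CPM) and Csf1r (10.2 and 15.3 CPM), and the endothelial genes Cldn5 (55.2 and 75.9 CPM, 1.38) and Flt1 (1.22). Their part in the members' ratios was not tested. Endothelial-like cells had 5 of 35 higher, against 6.08%, and 0 lower, against 6.61%. Macrophage-like cells had 10 of 25 higher, against 10.6%, and 0 lower, against 10.2%. Perineurial-like cells had 11 of 21 higher, against 9.16%, and 1 lower, against 8.08%. Fibroblast-like cells had 2 of 24 higher, against 8.08%, and 1 lower, against 8.85%, counts near the background. The median ratios ran from 1.07 in fibroblast-like to 1.27 in perineurial-like cells. The fibroblast-like median was 0.986 at the coarser clustering. No cluster was named perineurial at that clustering, so the perineurial name depends on the resolution. Every class held UMIs of neuron genes, so the classes are not independent. In unshared droplets 4 members were higher in macrophage-like cells, 2 in perineurial-like and 1 in endothelial-like cells. The members with enough UMIs and the share of all genes past the step are not given for these droplets or for thinned cells. No change is therefore read from these counts.

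Ifitm3 was past the size step in every class compared except neurons and fibroblast-like cells. It stood at 393 and 504 CPM in satellite glia-like cells (ratio 1.28, 1.23 to 1.33), at 164 and 218 CPM in myelinating Schwann-like (1.33, 1.27 to 1.38), at 581 and 764 CPM in endothelial-like (1.32, 1.24 to 1.40) and at 280 and 395 CPM in macrophage-like cells (1.41, 1.20 to 1.66). In neurons its ratio was 1.04. The endothelial gene Cldn5 was also higher in Penk_KO in satellite glia-like cells, with 85.1 and 131 CPM (1.53, 1.41 to 1.67), and its part in the Ifitm3 ratio there was not tested. Isg15 stood at 235 and 309 CPM in endothelial-like cells (1.32, 1.19 to 1.45) and at 66.0 and 117 CPM in macrophage-like cells (1.78, 1.29 to 2.47). Of endothelial-like cells 45.5% and 51.6% had an Isg15 UMI, but the thinned shares, 13.8% and 13.4%, did not follow the CPM. The thinned macrophage-like shares, 3.19% and 4.26%, came from 22 and 23 cells, so no order is read from them. Ifitm2 in macrophage-like cells stood at 614 and 797 CPM (1.30, 1.16 to 1.45), and in endothelial-like cells had a ratio of 1.04.

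Zbp1 was past the step in satellite glia-like (ratio 1.27, 1.00 to 1.61), myelinating Schwann-like (1.30, 1.07 to 1.58) and endothelial-like cells (1.46, 1.15 to 1.86). Without the deep or mixed clusters its Schwann-like ratio was 0.985, and with cells thinned to 500 UMIs its satellite glia-like ratio was 0.817. Irf7 lay on both sides of 1: it was at 149 and 222 CPM in macrophage-like cells (1.49, 1.20 to 1.86), at 129 and 93.1 CPM in fibroblast-like cells (0.721, 0.556 to 0.930) and at 208 and 143 CPM in perineurial-like cells (0.690, 0.553 to 0.859). With thinned cells the fibroblast-like ratio was 0.938. Of the 11 members higher in perineurial-like cells, those with the highest ratios were Stat2, with 52.9 and 105 CPM (1.99, 1.42 to 2.82), Isg15, with 128 and 200 CPM (1.57), Ifit1, with 170 and 257 CPM (1.51, 1.24 to 1.84), and Eif2ak2, with 55.8 and 83.3 CPM (1.49, 1.05 to 2.13). Rsad2 stood at 23.5 and 32.8 CPM in myelinating Schwann-like cells (ratio 1.40), and its endothelial ratio was 1.20.

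The other members past the step outside neurons were spread over the classes. In macrophage-like cells Stat2 had a ratio of 1.43 (1.03 to 1.97) and Ifit1 1.29 (1.05 to 1.58), which was 0.992 with cells thinned to 500 UMIs. Ifit2 (0.923 to 2.04), Ifih1 (0.863 to 1.95), Trim25 (0.920 to 1.90) and Dtx3l, the partner of Parp9 (0.871 to 1.93), had intervals that included 1 there. Parp9 was at 21.3 and 26.7 CPM in myelinating Schwann-like cells, with an interval of the ratio from 1.11 to 1.41 and a thinned ratio of 0.971, and had a ratio of 1.36 (0.955 to 1.94) in fibroblast-like cells. Xaf1 had 1.35 (0.988 to 1.84) in fibroblast-like cells. Ifi44 and Ifi35 had ratios of 1.33 (1.13 to 1.58) and 1.30 (1.11 to 1.52) in endothelial-like cells, and Ifi44 had 0.985 there with thinned cells. Oas1a had 1.58 (1.22 to 2.04) in satellite glia-like cells, and in myelinating Schwann-like cells Ddx60, a helicase-like factor, had 1.31 (1.11 to 1.54) and Trim30a 1.46 (1.03 to 2.09). Both turned with thinned cells, Ddx60 to 0.938 and Trim30a to 0.657, and Trim30a also with cells averaged equally (0.541) and without the deep or mixed clusters (0.886). The members not described singly, Irf1, Irf9, Gbp2, Herc6 and Samd9l, had ratios in neurons between 1.08 (Gbp2) and 1.19 (Irf9).

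Upstream of the members, interferon transcripts were close to absent. The 14 type I interferon genes in the panel held 19 UMIs in all of Penk_ctrl and 6 in Penk_KO, and of the 3 type II and III genes only Ifng had UMIs, 5 and 3. Of the 6 receptor genes, 6 had enough UMIs in neurons, and 5 in endothelial-like and in macrophage-like cells. None of these was past the size step there, against the shares of all genes given above for each class. Their neuronal median ratio was 1.02. Among the subtypes, Ifnar2 was lower by the step in Sst/Nppb pruriceptor-like neurons (0.794, 0.641 to 0.982), where 5.34% of genes were lower. In fibroblast-like cells Ifngr1 was lower by the step (ratio 0.765, 0.648 to 0.902) and Ifngr2 higher (1.33, 0.999 to 1.78), and in perineurial-like cells Ifngr2 (1.32, 0.934 to 1.86) and Il10rb (1.36, 0.983 to 1.89) were higher. Ifnar1 differed between subtypes, with 259 and 248 CPM in C-LTMR-like neurons and 35.1 and 33.0 CPM in proprioceptor-like neurons, and had 228 and 218 CPM in endothelial-like cells. Ifnar2 was at 26.7 and 27.2 CPM in neurons and 186 and 182 CPM in macrophage-like cells. Ifngr1, of the type II receptor, was at 301 and 298 CPM in macrophage-like cells and at 294 and 225 CPM in fibroblast-like cells.

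Of the receptor kinases, Jak1 was at 365 and 371 CPM in neurons and Tyk2 at 5.56 and 6.24 CPM. Jak1 differed widely between subtypes, from 98.5 and 98.5 CPM in C-LTMR-like neurons to 2684 and 2752 CPM in Sst/Nppb pruriceptor-like neurons. Tlr7, the receptor that imiquimod activates, was at 141 and 140 CPM in macrophage-like cells and 0.278 and 0.315 CPM in neurons. Of 9 nucleic acid sensing genes with enough UMIs in neurons, 1 was higher by the step, against 2.34% of all genes, and 0 lower, against 4.49%, and the same shares apply to the neuronal counts that follow. Ddx58, the RNA sensor RIG-I, was at 85.7 and 95.5 CPM in neurons (ratio 1.11). Of 7 negative regulators 1 was higher, and Socs1, an inhibitor of the receptor kinases, was at 9.14 and 9.43 CPM. Among 46 other interferon-stimulated genes 6 were higher and 3 lower in neurons, with a median ratio of 1.10, and in macrophage-like cells 4 of 20 were higher, against 10.6% of genes, and 0 lower, against 10.2%, with a median of 1.15. Of 12 class I antigen presentation genes 0 were higher and 1 lower in neurons, with a median of 1.06, and in macrophage-like cells 3 of 10 were higher and 0 lower, with a median of 1.15. Over all cells of each library, and chosen after their values were seen, Irgm1 stood at 32.7 and 42.0 CPM (ratio 1.28) and Ptpn6, a phosphatase, at 4.84 and 7.45 CPM (1.54).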

How the data were processed

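Unique molecules were counted per gene and cell in 2 libraries of fixed dorsal root ganglion cells. The deposited values are raw counts (UMIs), made by the authors with Cell Ranger 7.0 on GRCm39 per the labels' protocols, while the matrix header names version 8.0.1. The submitters' processing notes also name Seurat, with no role. Cells under 500 UMIs or 300 genes were left out. Cells were clustered with scanpy 1.11.5 (3000 variable genes without the members, other interferon-stimulated and class I antigen presentation genes, 40 components, 15 neighbours, Leiden resolution 1) and named from marker lists. The neuron marker list and the alternative without deep or mixed clusters were chosen after seeing the data, and the members and lists were chosen with earlier results of these data known. An automatic Scrublet threshold marked 0 and 1 cells and so did not work, and no doublets were removed. From the barcodes both libraries share, a Poisson estimate put droplets holding several cells of the same library at 22.8% and 16.8%. Leaving out that share by score, with ties at the limit kept (3471 and 1790 cells removed), was an alternative. Counts were summed per class and library and given per 1000000 UMIs (CPM). Intervals at 95% are exact Poisson for levels, exact binomial for ratios and Clopper-Pearson for shares. They cover counting error only. With 1 library per group no test was made. The script for ratios was tested on simulated data. Members described singly were the 2 of each role group with most UMIs, those past the size step in 1 of 6 classes, and those at least 3 times the next class in both libraries. Subtype patterns, Samd9l, Irf1, Irf9, Gbp2 and Herc6 were picked out after their values were seen. Promoter windows are of GRCm38.p6, not the build of the files, and were used for sequence only. Some genes outside the members are not reported here.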

Additional observations from a re-analysis of the deposited data

How the results depend on the processing

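No paired analysis was possible because the labels give no replicate numbers and each group has 1 library, so no library could be left out either. Of the summary values under the alternatives, 298 stayed close to the value reported and 68 moved. Of the single members' ratios, 369 stayed close, 99 moved and 14 changed direction. The cause was not tested. Counts past the size step under an alternative are given without the members that had enough UMIs and without the share of all genes. An alternative can change both, so a rise or fall of a count is not read as a result about the members.

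With cells thinned to 500 UMIs, 3 members were higher and 2 lower in neurons (median 1.03), 6 higher in satellite glia-like, 5 lower in myelinating Schwann-like (median 1.02), 7 higher and 3 lower in fibroblast-like, 0 lower in perineurial-like, 12 higher and 3 lower in endothelial-like, and 3 lower in macrophage-like cells. The peptidergic A-fibre median was 0.990, the Isg15 step 4.21 and 2.59, and the members highest in macrophage-like cells and in Mrgprd nonpeptidergic-like neurons 5 and 6. Ratios that turned under thinning were Ifit3b 0.995, Ifit1bl1 0.903, Oas2 0.811 and Trim30a 0.865 in neurons, Zbp1 0.817 in satellite glia-like, Ddx60 0.938, Trim30a 0.657 and Parp9 0.971 in Schwann-like, Ifi44 0.985 in endothelial-like, and Ifit1 0.992 and Trim25 0.729 in macrophage-like cells. Thinned to 1000 UMIs, cells had 1.98 and 2.06 members in neurons, 4.82 and 5.53 in endothelial-like and 3.44 and 3.61 in macrophage-like cells.

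With cells averaged equally, 3 members were higher in neurons (median 1.07), 5 in satellite glia-like, 15 in endothelial-like and 2 in Schwann-like cells, where 1 was lower, the median was 1.04 and Trim30a had 0.541. The Isg15 step in Penk_KO was 3.37. With subtypes weighted equally the neuronal median was 1.06. At Leiden resolution 0.6, 6 members were higher in satellite glia-like, 2 in Schwann-like and 0 in fibroblast-like cells, 3 were lower in fibroblast-like and 1 in macrophage-like cells, 6 were highest in macrophage-like cells, and the Isg15 step was 6.63 and 4.61. Perineurial-like cells gave no value there. At resolution 1, 1121 cells were named perineurial and 88 arachnoid-like meningeal. At 0.6 a cluster of 1207 cells was named arachnoid-like meningeal, with perineurial 0.53 behind in marker score. The perineurial name therefore depended on the resolution.

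In droplets not shared between the libraries, 2 members were lower in satellite glia-like cells, and 4 were higher in fibroblast-like, 2 in perineurial-like, 1 in endothelial-like and 4 in macrophage-like cells. The A-beta LTMR median was 1.04, the Isg15 step in Penk_ctrl 5.31, and 5 members were highest in macrophage-like cells. Without the cells of highest Scrublet score, 1 was higher in satellite glia-like and 5 in macrophage-like cells, and 3 were lower in fibroblast-like cells. Without the deep or mixed clusters, 1 was lower in satellite glia-like cells, Zbp1 and Trim30a had 0.985 and 0.886 in Schwann-like cells, and the Isg15 step was 6.55 and 4.55. Without the 1% of cells highest in members, 2 were lower in fibroblast-like cells.

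With a minimum of 1 UMI, 5 were higher in satellite glia-like, 7 in fibroblast-like and 18 in perineurial-like cells, and 5, 2 and 1 were lower in fibroblast-like, perineurial-like and endothelial-like cells. With a minimum of 500 UMIs, 1 was higher in satellite glia-like, 0 in fibroblast-like, 1 in perineurial-like and 2 in macrophage-like cells, and 0 were lower in fibroblast-like and perineurial-like cells. In the 150 bases before the start, 4 members held the gamma-activated site. Scaling by the median ratio over genes moved none of these counts.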
